A study of Mus musculus with 35 samples.

Results

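Ribosomal proteins are the protein part of the cytosolic ribosome, the particle that reads messenger RNA and joins amino acids into protein. Each ribosome carries a single copy of nearly every one of them, divided between the small subunit, which holds the messenger RNA and checks codons, and the large subunit, which forms peptide bonds. Their messenger RNAs are among the most abundant of any tissue, lung included, and most begin with a run of pyrimidines, the 5' terminal oligopyrimidine (TOP) motif, through which the mTORC1 pathway sets how strongly they are translated. The set described here holds every gene of the array annotation whose symbol follows a fixed pattern of names for cytosolic ribosomal proteins. The pattern is Rps or Rpl with a number and an optional a, x or l, or Rplp0, Rplp1, Rplp2 or Rpsa. The kinases named Rps6k were left out. The genes were chosen by symbol and not by any measured value. They numbered 67 of 17097 genes, 24 of the small subunit and 43 of the large subunit.

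The arrays measured whole lung of adult male mice of the outbred CD-1 stock after they inhaled clean air or styrene, a volatile solvent, at 1, 5, 10, 20, 40 or 120 ppm. There were 7 groups of 5 mice and 35 arrays, 1 per mouse. The treatment protocol and the sample titles give a single exposure of 6 hours, or 1 day, with the lungs taken the next morning, whereas 5 days stand in the series title and among the sample characteristics, so how long the mice were exposed is not settled. The values are log2 signals, and the number of arrays limits their precision. In whole lung, fewer cells of a type and less RNA per cell cannot be told apart.

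Of the probe sets that name a single gene, the brightest one stood for it, a probe set being the group of short probes that report on one transcript. The 67 genes had 128 such probe sets, 34 genes with 1 and 33 with several, and 15 further probe sets that named a ribosomal protein gene together with another symbol were left out. The brightest probe set carried in its name the mark x or s, which the array maker gives to probes that may match other transcripts, in 16 and 5 genes. This matters here because ribosomal protein genes have many processed pseudogenes, and signal from such copies could not be separated. Ribosomal proteins whose symbols are not among these 67, such as Rpl5, Rps27 and Rps27a, were not analysed as members. Ribosomal genes with symbols outside the pattern, such as Rps3a1, Rpl36al, Rpl22l1 and Fau, are counted below among the other bright genes. The pseudogenes Rpl31-ps12, Rpl34-ps1 and Rps15a-ps6 are counted there too. No filter on low signal was applied, and all 67 genes were tested.

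The bright members of the set lay near the top of the array scale. Over all arrays 63 genes had a mean signal between 11.07 and 13.17 log2, and 98.8% of all probe sets were dimmer than the dimmest of these. Rpl14, a large subunit protein, stood at 6.21 log2. The other three lay lower still, Rpl39l at 3.29, Rpl3l at 3.28 and Rps15a at 3.21 log2, where 16.5% to 19.9% of all probe sets were dimmer. Rpl3l is the copy of Rpl3 used by heart and skeletal muscle, and Rpl39l is a copy of Rpl39 best known from the testis. Rps15a encodes a small subunit protein that every ribosome carries, and its only single-symbol probe set was as dim as those of the tissue-restricted copies. Signals of different probe sets do not compare the abundance of different messenger RNAs. Where they are set against each other below, they describe the probe sets on these arrays.

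Sequence around the transcription start was read for features known from ribosomal protein genes. For 53 of the 67 genes RefSeq's annotation of the mouse build GRCm38.p6 gave the promoter, 250 bases before to 50 bases after the start, in 64 windows. The 6 stretches printed here run from 60 bases before the start to 15 bases from it. They were picked as the largest changes, in each direction, among genes with a pyrimidine run, so that rising and falling genes can be set side by side. Capitals mark a run of at least 8 C or T whose first base lies within 20 bases of the annotated start, and all other bases are in lower case. By the brightest probe set, the first 3 genes rose and the last 3 fell in the mice that breathed 5 ppm or more. For Rpl15 a dimmer probe set went the other way, as given below.
Rpl4: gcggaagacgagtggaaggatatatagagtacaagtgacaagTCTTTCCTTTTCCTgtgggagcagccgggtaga
Rps24: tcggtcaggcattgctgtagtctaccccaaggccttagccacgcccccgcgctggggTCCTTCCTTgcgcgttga
Rps6: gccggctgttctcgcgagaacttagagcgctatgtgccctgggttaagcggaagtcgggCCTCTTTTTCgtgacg
Rpl15: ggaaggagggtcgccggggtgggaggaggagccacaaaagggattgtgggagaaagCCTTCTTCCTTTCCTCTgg
Rplp2: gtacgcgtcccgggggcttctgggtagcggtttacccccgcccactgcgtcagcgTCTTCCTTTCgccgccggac
Rps10: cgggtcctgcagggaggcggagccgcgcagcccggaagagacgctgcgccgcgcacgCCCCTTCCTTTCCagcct
These stretches lie at chr9:64173327-64173401, plus strand for Rpl4, chr14:24490618-24490692, plus strand for Rps24, chr4:86857353-86857427, minus strand for Rps6, chr14:18270972-18271046, minus strand for Rpl15, chr7:141447591-141447665, plus strand for Rplp2 and chr17:27635230-27635304, minus strand for Rps10. The run of Rpl4 is 14 bases long, that of Rps24 9, Rps6 10, Rpl15 17, Rplp2 10 and Rps10 13. The run of Rpl4 has its first base at -18 from the annotated start and ends before that start. By this annotation it lies outside the transcript, whereas the other runs printed here cross the start. All 6 hold a run because they were picked for one.

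Such a run was found in 25 of the 53 genes (47.2%), against 19.3% of the 27025 genes of the same promoter table. Among the genes that later prove to rise in all 5 groups from 5 ppm up, 7 of 20 with a promoter held it, and among those that fall in all 5, 7 of 12. The letters CCGGAAG, the core bound by ETS factors, stood on either strand in 24 of 53 genes (45.3%, against 9.93% of all genes), in 7 of the 20 rising and 8 of the 12 falling genes. GGGCGG, the core bound by Sp1, was in 31 (58.5%, against 38.2%), in 9 of 20 and 10 of 12. TTTCCG, which shares TTCCG with CCGGAAG read on the other strand, was in 20 (37.7%, against 10.0%), and TATAAA was in 6 (11.3%, against 15.7%). AAGATGGC, a form of the YY1 site, was in 4 (7.55%, against 3.19%). With 14 genes unmatched, 79.1% had a window, so these shares describe the matched genes alone. A match of letters is not a binding site.

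At 1 ppm no gene of the set differed from air. Limma, which fits group means by a linear model and steadies each gene's variance with that of all genes, with Benjamini-Hochberg adjustment over all genes, called 0 of 67 at an adjusted p under 0.05, where 2.46% of all genes were called, 0.965% higher and 1.49% lower. At an unadjusted p under 0.05 there were 4 (15.6% of all genes), and the lowest adjusted p in the set was 0.0668. The median change was -0.07 log2, and over all genes it was -0.04. All 67 genes had overlapping values in both groups, where 0.462% of all genes lay wholly above and 0.784% wholly below air.

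From 5 ppm up most of the set differed from air, and it divided into a rising and a falling part. At 5 ppm 54 of the 67 genes were called, 30 higher and 24 lower, where 77.0% of all genes were called, 29.6% higher and 47.4% lower. With each array centred on its median the split was 23 higher and 27 lower, and the median of all genes moved from -0.23 to -0.33 log2. At 10 ppm 51 were called, 27 higher and 24 lower (66.4% of all genes, 29.0% higher and 37.4% lower). At 20 ppm 49 were called, 33 higher and 16 lower (63.6%, 29.4% and 34.2%). At 40 ppm there were again 49, 28 higher and 21 lower (64.8%, 28.6% and 36.2%), and at 120 ppm 48, 29 higher and 19 lower (68.9%, 29.8% and 39.1%). On the deposited values the set was thus called in 80.6%, 76.1%, 73.1%, 73.1% and 71.6%. These lay above the share of all genes at each concentration and nearest to it at 5 and 120 ppm. With arrays centred on their medians, the set lay below that share at 5 ppm, with 50 of 67 genes against 83.0%. It also lay below it at 120 ppm, with 49 of 67 against 74.1%, and above it at 10, 20 and 40 ppm. Without genes of a mean under 6 log2, the set lay below the share of all genes kept at each concentration from 5 ppm up. Then 53 of 64 genes were called against 89.2% at 5 ppm, and 52 of 64 against 87.0% at 120 ppm. A fit of only the groups compared put the set below at 5 ppm, with 44 of 67 against 71.0%, and above at the other concentrations. The median change of the set was 0.01 log2 at 5 and 10 ppm, 0.11 at 20, 0.07 at 40 and 0.04 at 120 ppm, beside -0.23, -0.14, -0.11, -0.13 and -0.15 over all genes. Median centring of the arrays gave the set -0.09, -0.06, 0.05, 0.02 and -0.03, beside -0.33, -0.21, -0.17, -0.18 and -0.22 over all genes. These 5 comparisons share the same 5 mice in air and are not independent of each other.

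**Figure D1:**
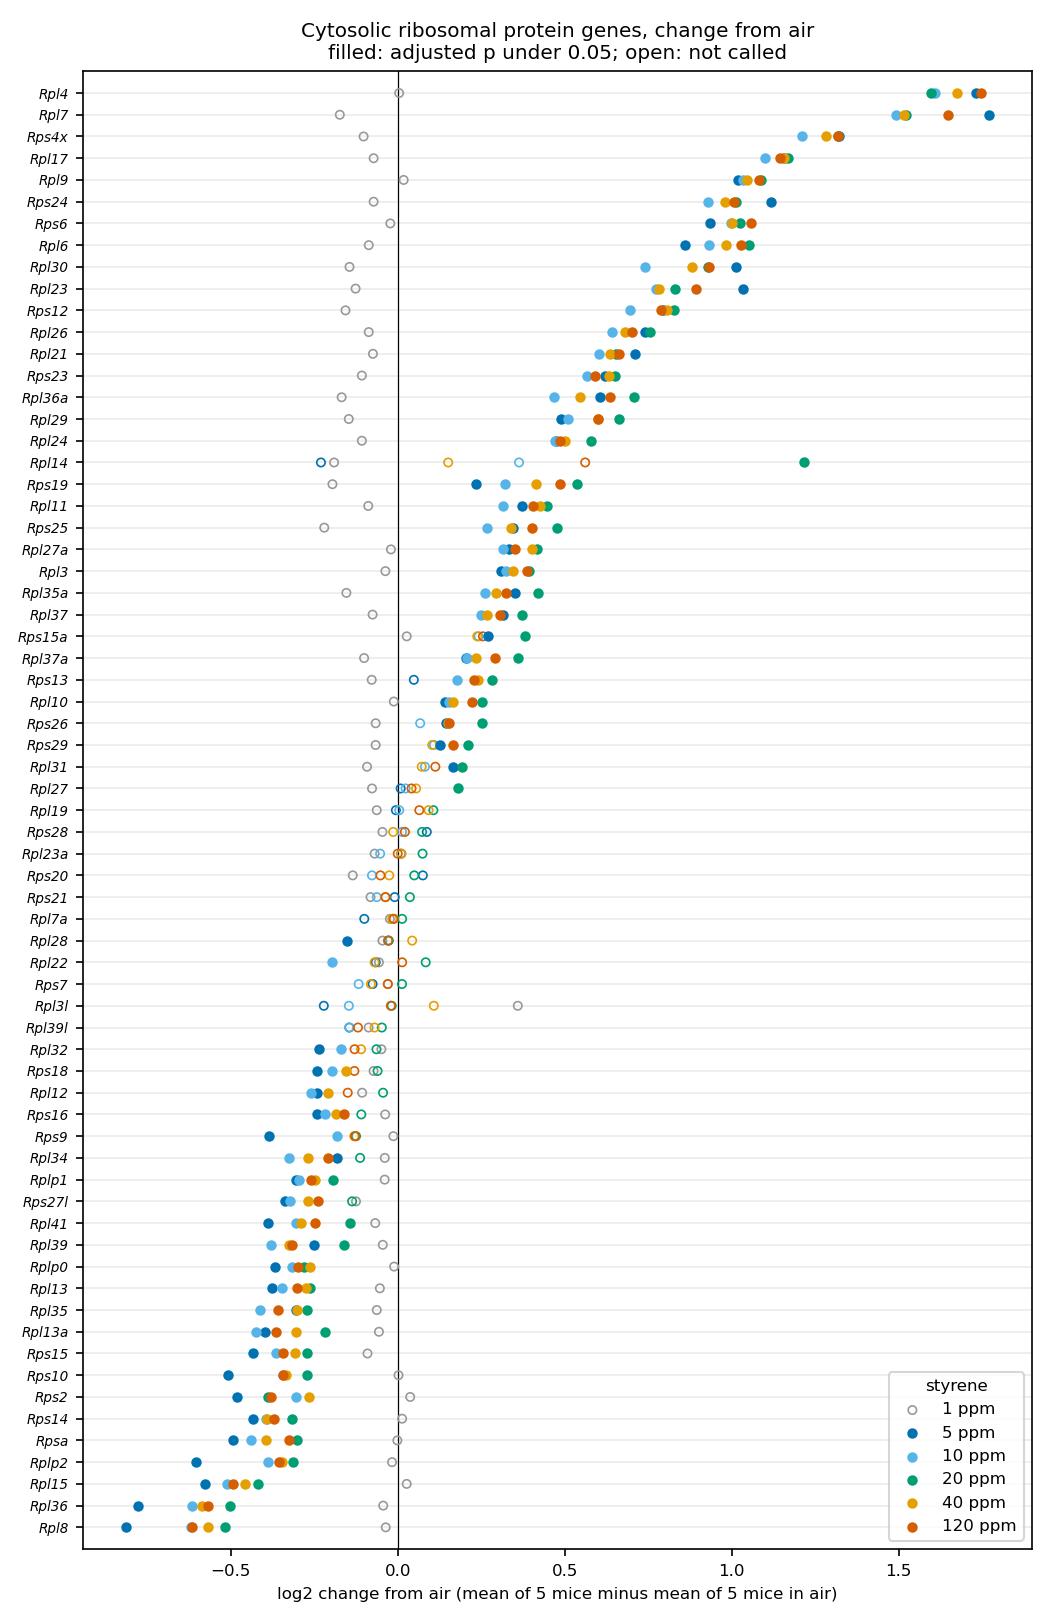
Log2 change from air of all 67 genes, one row per gene, ordered by the mean change over 5 to 120 ppm; each point is one concentration, filled where limma's adjusted p was under 0.05 and open otherwise. Rpl4 and Rpl7 lie at the top, between 1.49 and 1.77, and Rpl8 and Rpl36 at the bottom, between -0.81 and -0.50; all points at 1 ppm are open.

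The arrays themselves differed between these groups beyond any one gene. The interquartile range over all probe sets was 3.04 ± 0.0917 log2 (SD, n = 5) in air, 2.85 ± 0.117 at 1 ppm and 3.38 to 3.48 in the groups from 5 ppm up, with no overlap. Scores on the largest axis of spread between mice of the same group, called the array axis here, carried 18.8% of that spread and lay between -1.91 and -0.646 in air and between -0.494 and 1.41 from 5 ppm up. Because neither measure overlapped between air and these groups, a fit with either as a covariate extrapolates. Adding the array axis to the fit left 13, 27, 33, 30 and 24 genes of the set called at 5, 10, 20, 40 and 120 ppm, and adding the interquartile range left 32, 33, 32, 29 and 31. Of all genes 16.2%, 23.9%, 30.4%, 30.2% and 24.3% were called with the array axis. With the interquartile range these shares were 34.1%, 28.8%, 28.2%, 28.3% and 29.5%. No label names an array batch, and a batch in step with exposure and exposure itself cannot be told apart. Markers of lung cells were present: the mean of 3 measured markers of alveolar type 2 cells ranged from 12.50 to 12.76 log2 over the mice in air and that of 4 club cell markers from 13.26 to 13.42. Some cell markers also moved: at 120 ppm all 4 platelet markers, 2 of 3 measured red cell markers and the 2 measured ciliated cell markers were lower and 3 of 4 alveolar macrophage markers were higher. Of all genes 39.1% were lower and 29.8% higher there. Of 4 skeletal muscle markers 2 were lower, of 4 germ cell markers 1 was lower, and of the 3 alveolar type 2 markers 1 was higher. Some other lists went both ways, with 3 T cell markers higher and 1 lower. Alveolar type 1 markers gave 2 and 2, endothelial and fibroblast markers 2 and 1 each, and B cell markers 1 and 1. No club cell, neutrophil or cardiac muscle marker was called. The mean of the platelet markers ranged from 8.09 to 8.55 log2 over the mice in air and from 5.67 to 6.70 at 120 ppm, and that of the macrophage markers from 7.00 to 8.13 and from 8.41 to 9.30. Their part in the changes of the ribosomal protein genes was not tested.

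In size the changes of the set were smaller than those of most genes. Changes of more than 1.5-fold from air were seen in 18, 15, 17, 16 and 17 of the 67 genes at 5, 10, 20, 40 and 120 ppm, where 53.2%, 44.5%, 41.8%, 43.1% and 46.6% of all genes passed that size. Standard errors in the set were also smaller, with a median of 0.0658 log2 against 0.129 over all genes. At 5 ppm 24 genes had all 5 exposed mice above the 5 in air and 24 had all 5 below, beside 25.1% and 32.7% of all genes. At 120 ppm these counts were 29 and 18 (24.4% and 26.3% of all genes). At 10 ppm they were 28 and 24 (23.4% and 25.8%), at 20 ppm 29 and 14 (20.2% and 21.2%), and at 40 ppm 26 and 19 (23.4% and 24.2%).

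No gene of the set was called in both directions across the concentrations, all read against the same mice in air. The change had one sign in all 5 groups in 56 genes and differed in sign among them in 11. Higher in all 5 groups were 26 genes (38.8%, against 24.6% of all genes), 7 of the small and 19 of the large subunit. Lower in all 5 were 16 (23.9%, against 29.3%), 5 small and 11 large. The remaining 16 with any call were called one way in 1 to 4 groups, and 9 were called in none. Calls in both directions, 0 here, were made in 0.164% of all genes. The 26 rising genes held Rpl4, Rpl7, Rps4x, Rpl17, Rps24, Rpl9, Rps6, Rpl23, Rpl30, Rpl3, Rpl10, Rpl11, Rpl36a and Rps19. Among the 16 falling genes were Rpl8, Rpl36, Rpl15, Rps2, Rps10, Rps14, Rpsa, Rpl13a, Rpl39 and the 3 acidic stalk genes Rplp0, Rplp1 and Rplp2. With each array centred on its median the 2 counts were 22 and 19, of which 22 and 16 were among the 26 and 16, and after quantile normalization 28 and 20, holding all 26 and all 16. Of all genes 23.0% were higher and 34.3% lower in all 5 groups with median centring, and 21.7% and 28.2% after quantile normalization. Adjusted for the array axis, 10 of the set were higher and 2 lower in all 5 groups, where 5.96% and 7.90% of all genes were.

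Rpl4 had the largest rises of the set at 10, 20, 40 and 120 ppm. It encodes a large subunit protein that lines the tunnel through which the new peptide leaves. Its signal in air was 10.15, 10.31, 10.50, 10.60 and 11.12 log2 in mice 1 to 5, and at 1 ppm 10.60, 10.25, 10.53, 10.33 and 10.98. At 5 ppm the mice gave 12.20, 12.32, 12.35, 12.22 and 12.24, and at 10 ppm 12.02, 12.22, 12.18, 12.07 and 12.23. The mice at 20 ppm gave 11.98, 12.19, 12.02, 12.25 and 12.23, those at 40 ppm 12.26, 12.22, 12.20, 12.21 and 12.16 and those at 120 ppm 12.20, 12.28, 12.26, 12.42 and 12.24. Every mouse from 5 ppm up lay above every mouse of the air and 1 ppm groups, and mouse 5 was the highest of its group both in air and at 1 ppm. The mean was 10.54 ± 0.37 log2 (SD, n = 5) in air and 12.27 ± 0.0672 at 5 ppm, a rise of 1.73 ± 0.121 (SE), or 3.32-fold (limma adjusted p = 2.94e-14). At 120 ppm the rise was 1.75 ± 0.121, or 3.35-fold (limma adjusted p = 8.66e-14). At 1 ppm the change was 0.00 ± 0.121.

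Rpl7, another large subunit protein that binds ribosomal RNA, rose most at 5 ppm. Mice 1 to 5 gave 10.40, 10.46, 10.53, 10.71 and 11.04 log2 in air and 10.49, 10.10, 10.52, 10.47 and 10.71 at 1 ppm. Those at 5 ppm gave 12.37, 12.49, 12.44, 12.22 and 12.47, and those at 10 ppm 12.02, 12.17, 12.22, 12.01 and 12.19. At 20 ppm the values were 12.12, 12.20, 11.97, 12.29 and 12.17, at 40 ppm 12.15, 12.12, 12.15, 12.19 and 12.11 and at 120 ppm 12.25, 12.26, 12.22, 12.37 and 12.27. The groups from 5 ppm up again did not overlap those below. Rpl7 rose by 1.77 ± 0.0984 log2 (SE) at 5 ppm, or 3.41-fold (limma adjusted p = 3.19e-16), and by 1.65 ± 0.0984 at 120 ppm (limma adjusted p = 4.85e-15). Its other 2 probe sets, at mean signals of 11.46 and 10.62 log2, rose at 120 ppm by 1.90 ± 0.105 and 1.23 ± 0.107.

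Rps6, the small subunit protein phosphorylated by the S6 kinases downstream of mTORC1, also rose in every group from 5 ppm up. Its values in air were 11.70, 11.66, 11.88, 11.90 and 12.14 log2 in mice 1 to 5, and 11.82, 11.57, 11.92, 11.80 and 12.06 at 1 ppm. Values at 5 ppm were 12.82, 12.90, 12.85, 12.66 and 12.73, and at 10 ppm 12.85, 12.90, 12.83, 12.87 and 12.82. Mice at 20 ppm had 12.91, 12.89, 12.90, 12.83 and 12.88, at 40 ppm 12.81, 12.83, 12.80, 12.88 and 12.97 and at 120 ppm 12.86, 12.90, 12.96, 12.90 and 12.94. All 25 mice from 5 ppm up lay above all 10 others, and the spread within those 5 groups was narrower than in air (0.029 log2, SD, at 10 ppm against 0.19). The rise was 0.94 ± 0.0791 log2 (SE) at 5 ppm and 1.06 ± 0.0791 at 120 ppm, or 2.08-fold (limma adjusted p = 3.91e-13). A second Rps6 probe set, at 7.13 log2, rose by 1.05 ± 0.334 at 120 ppm, and the dimmest, at 3.21 log2, fell by 0.42 ± 0.136 (limma adjusted p = 0.00801 over probe sets).

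The next largest rises belonged to both subunits. Rps4x, the X-linked copy of a small subunit protein, went from 11.29 ± 0.267 log2 (SD, n = 5; 11.01 to 11.70) in air to 12.61 ± 0.0977 at 5 ppm (12.45 to 12.70) and 12.61 ± 0.0614 at 120 ppm. It rose by 1.32 ± 0.102 (SE) and 1.32 ± 0.102 (limma adjusted p = 2.71e-13 and 7.88e-13). Rpl17, a large subunit protein at the mouth of the exit tunnel, rose by 1.16 ± 0.0871 at 5 ppm and 1.14 ± 0.0871 at 120 ppm, measured by a probe set marked x. Without probe sets marked x or s, Rpl17 was read from one at 6.99 log2, and its call was lost at every concentration from 5 ppm up (changes of 0.05 to 1.18, adjusted p of 0.0794 to 0.946). Rps24, a small subunit protein whose mutation causes Diamond-Blackfan anaemia, rose by 1.12 ± 0.0714 and 1.01 ± 0.0714. Rpl9, of the large subunit, rose by 1.03 ± 0.0739 at 10 ppm and 1.08 ± 0.0739 at 120 ppm. In all 4 genes each exposed mouse of these groups lay above the 5 in air.

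Several other members of the set rose by less. Rpl11, which binds MDM2, the ubiquitin ligase of p53, together with the 5S RNA, rose by 0.37 ± 0.111 log2 (SE) at 5 ppm and 0.41 ± 0.111 at 120 ppm (limma adjusted p = 0.00332 and 0.00176), and its mice overlapped those in air except at 120 ppm. In air mice 1 to 5 gave 10.88, 11.07, 11.62, 11.70 and 11.73 log2, with an SD of 0.396 against 0.0777 at 5 ppm. The SE of Rpl11 comes from a variance shared by all groups and does not show this wider spread in air. Air mice 1 and 2 lay well below the other mice in air. Rps19, the small subunit protein most often mutated in Diamond-Blackfan anaemia, rose by 0.23 ± 0.0861 at 5 ppm and 0.49 ± 0.0861 at 120 ppm. Rpl3, which reaches the peptidyl transferase centre, rose by 0.31 ± 0.0767 and 0.39 ± 0.0767. Rpl36a rose by 0.61 ± 0.0969 and 0.63 ± 0.0969, and Rpl10, one of the last proteins to join the large subunit, by 0.14 ± 0.052 and 0.22 ± 0.052. Of the 14 measured ribosomal proteins linked to Diamond-Blackfan anaemia, 8 were higher and 3 lower at 5 ppm and 7 and 3 at 120 ppm, with medians of 0.14 and 0.13, where 77.0% and 68.9% of all genes were called.

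Rpl8, which sits next to the peptidyl transferase centre of the large subunit, had the largest fall at 5, 10, 20 and 120 ppm. Its signal in air was 12.84, 12.80, 12.53, 12.74 and 12.60 log2 in mice 1 to 5, and 12.62, 12.67, 12.77, 12.72 and 12.55 at 1 ppm. It was 11.76, 11.85, 11.87, 12.17 and 11.80 at 5 ppm and 12.14, 12.04, 12.02, 12.12 and 12.09 at 10 ppm. At 20 ppm it was 12.20, 12.14, 12.25, 12.14 and 12.19, at 40 ppm 12.08, 12.13, 12.19, 12.08 and 12.18 and at 120 ppm 12.00, 12.06, 12.23, 12.02 and 12.12. No mouse from 5 ppm up reached the lowest of the air and 1 ppm groups, and mouse 4 at 5 ppm stood above the other four of its group. Rpl8 fell by 0.81 ± 0.0729 log2 (SE) at 5 ppm, or 1.76-fold (limma adjusted p = 8.21e-12), and by 0.62 ± 0.0729 at 120 ppm (limma adjusted p = 5.66e-09). Its call was lost on adjusting for the array axis at 5 ppm (-0.34, adjusted p = 0.109) and at 120 ppm (-0.27, adjusted p = 0.0831).

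Rpl36, a small protein of the large subunit, fell nearly as far. In air it gave 12.58, 12.46, 12.50, 12.42 and 12.48 log2 in mice 1 to 5, and 12.41, 12.43, 12.51, 12.41 and 12.46 at 1 ppm. In the 5 ppm mice it was 11.62, 11.72, 11.67, 11.84 and 11.69, and in the 10 ppm mice 11.89, 11.82, 11.92, 11.82 and 11.91. In the 20 ppm mice it was 12.09, 11.83, 12.05, 11.99 and 11.97, in the 40 ppm mice 11.81, 11.97, 12.01, 11.83 and 11.88 and in the 120 ppm mice 11.79, 11.90, 12.05, 11.89 and 11.97. The 5 ppm mice lay lowest, though the highest of them overlapped the groups above. Rpl36 fell by 0.78 ± 0.0638 log2 (SE) at 5 ppm, or 1.71-fold (limma adjusted p = 1.13e-12), and by 0.57 ± 0.0638 at 120 ppm (limma adjusted p = 1.9e-09).

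The acidic stalk of the large subunit, which recruits the elongation factors, had members called lower in every group from 5 ppm up. It is built on Rplp0 with Rplp1 and Rplp2, and Rpl12 binds at its base. Of these 4 genes 4 were lower at 5, 10 and 40 ppm and 3 at 20 and 120 ppm, where 47.4%, 37.4% and 36.2%, and 34.2% and 39.1%, of all genes were lower. Their changes had a median of -0.34 at 5 ppm and -0.28 at 120 ppm. The 4 genes were listed with earlier results of these data known, and this count is no test of the stalk. Rplp0, which is widely used as a reference gene in quantitative PCR, gave 12.91, 12.94, 12.90, 12.89 and 12.84 log2 in air and 12.87, 12.90, 12.90, 12.88 and 12.89 at 1 ppm. It gave 12.41, 12.49, 12.54, 12.70 and 12.50 at 5 ppm and 12.67, 12.58, 12.56, 12.63 and 12.47 at 10 ppm. It gave 12.61, 12.54, 12.64, 12.61 and 12.69 at 20 ppm, 12.58, 12.68, 12.64, 12.62 and 12.66 at 40 ppm and 12.52, 12.64, 12.69, 12.57 and 12.58 at 120 ppm. Every mouse from 5 ppm up was below every mouse of the air and 1 ppm groups. Rplp0 fell by 0.37 ± 0.0584 (SE) at 5 ppm, or 1.29-fold (limma adjusted p = 1.04e-06), and by 0.30 ± 0.0584 at 120 ppm, or 1.23-fold (limma adjusted p = 3.54e-05). Adjusted for the array axis, Rplp0 was not called (-0.17 at 5 ppm, adjusted p = 0.413, and -0.16 at 120 ppm, adjusted p = 0.299). Rplp1 fell by 0.31 ± 0.0516 at 5 ppm and 0.26 ± 0.0516 at 120 ppm, and Rplp2 by 0.60 ± 0.0598 and 0.36 ± 0.0598, with no overlap with air in either gene.

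Rpsa, a small subunit protein also known as the laminin receptor, fell in every group from 5 ppm up. Mice 1 to 5 had 12.71, 12.57, 12.67, 12.60 and 12.58 log2 in air and 12.59, 12.56, 12.68, 12.62 and 12.68 at 1 ppm. They had 12.09, 12.00, 12.31, 12.24 and 12.03 at 5 ppm and 12.22, 12.07, 12.20, 12.24 and 12.22 at 10 ppm. Those at 20 ppm had 12.40, 12.23, 12.41, 12.27 and 12.33, those at 40 ppm 12.16, 12.19, 12.32, 12.21 and 12.28 and those at 120 ppm 12.18, 12.25, 12.44, 12.30 and 12.33. The exposed mice of these groups all lay below the 10 others, and mouse 2 was lowest in air and at 1, 5, 10 and 20 ppm, although mouse numbers do not pair the groups. Rpsa fell by 0.49 ± 0.0671 (SE) at 5 ppm (limma adjusted p = 6.04e-08) and by 0.33 ± 0.0671 at 120 ppm (limma adjusted p = 7.16e-05). Adjustment for the array axis removed the call at 5, 10, 40 and 120 ppm (adjusted p = 0.424, 0.128, 0.116 and 0.574).

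Other falls in the set came from both subunits. Rpl15, a large subunit protein, fell by 0.58 ± 0.054 log2 (SE) at 5 ppm and 0.49 ± 0.054 at 120 ppm (limma adjusted p = 2.16e-11 and 1.13e-09), from 12.75 ± 0.0442 (SD, n = 5) in air. Its second, dimmer probe set, at 8.35 log2, went the other way, by 2.22 at 5 ppm and 1.97 ± 0.231 at 120 ppm, and the mean of both rose (0.82 and 0.74), so the direction for Rpl15 rests on the choice of probe set. Rps10, on the head of the small subunit, fell by 0.51 ± 0.0575 and 0.34 ± 0.0575. Rps2, at the entry of the messenger RNA channel, fell by 0.48 ± 0.0592 and 0.38 ± 0.0592, and Rps14, whose loss marks the 5q- syndrome in humans, by 0.43 ± 0.0551 and 0.37 ± 0.0551. Rpl13a, which also serves a translation silencing complex in immune cells, fell by 0.42 ± 0.067 at 10 ppm and 0.36 ± 0.067 at 120 ppm. Rpl39, of the exit tunnel, fell by 0.25 ± 0.0627 and 0.32 ± 0.0627. In these 5 genes other than Rpl15 the exposed mice lay below those in air without overlap at the concentrations named.

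**Figure D2:**
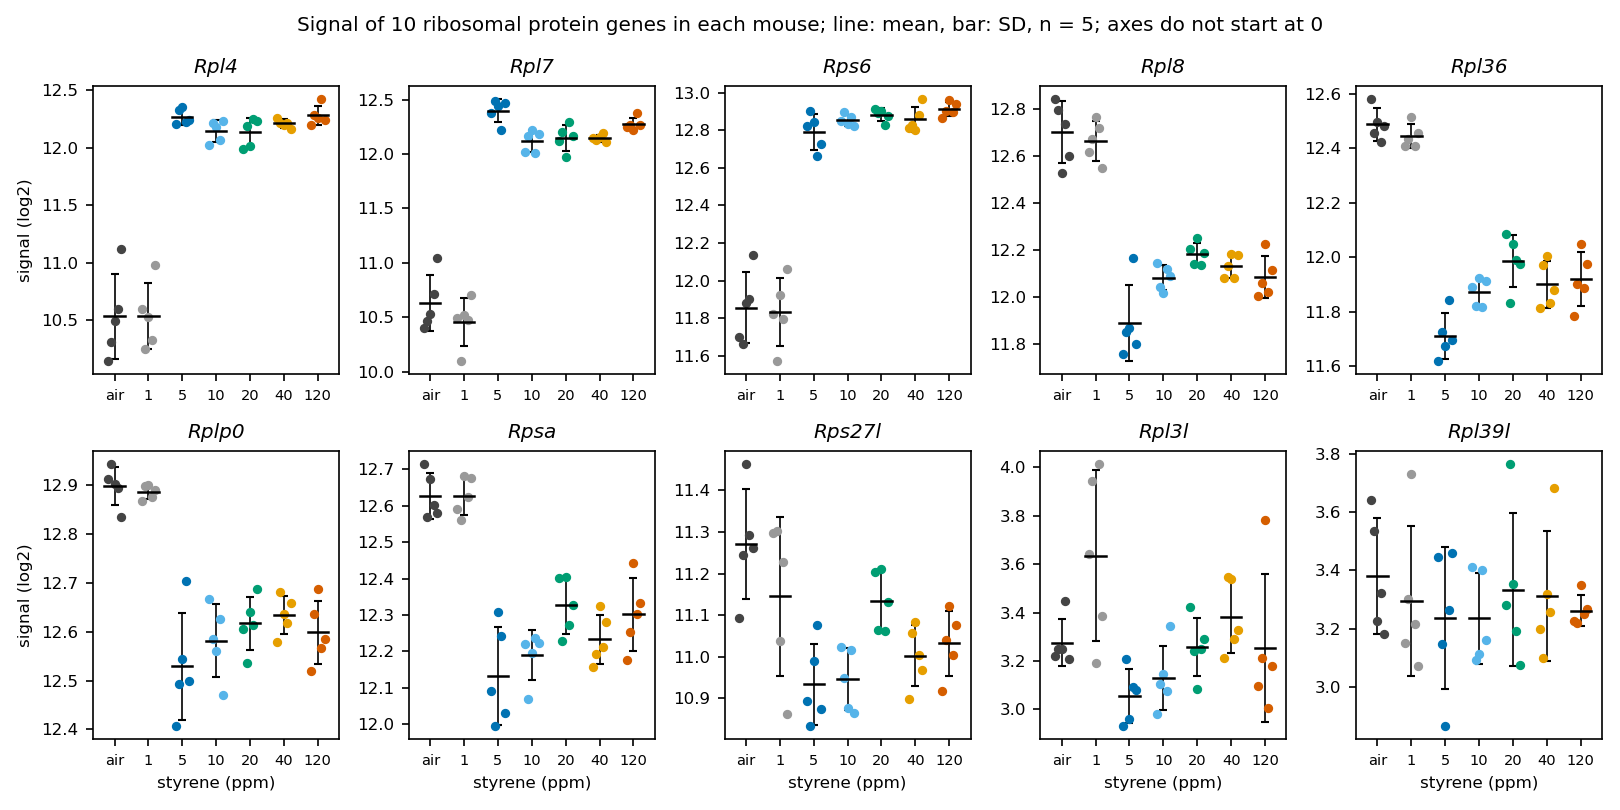
Log2 signal of 10 genes in every mouse by styrene concentration; points are mice, the line is the group mean and the bar the SD (n = 5). Rpl4, Rpl7 and Rps6 step up and Rpl8, Rpl36, Rplp0 and Rpsa step down between 1 and 5 ppm, whereas Rpl3l and Rpl39l lie between 2.87 and 4.01 with every exposed group overlapping air.

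Of the 3 members whose symbol ends in l, Rps27l, Rpl3l and Rpl39l, Rps27l alone was called against air. It was also the only one of them that was bright. Rps27l, a copy of Rps27 that p53 can induce, gave 11.09, 11.24, 11.46, 11.29 and 11.26 log2 in air and 11.30, 11.30, 11.04, 11.23 and 10.86 at 1 ppm. At 5 ppm it gave 10.89, 10.83, 10.99, 11.08 and 10.88, and at 10 ppm 11.02, 10.95, 10.88, 11.02 and 10.87. At 20 ppm it gave 11.20, 11.06, 11.21, 11.06 and 11.13, at 40 ppm 10.90, 11.06, 11.08, 11.00 and 10.97 and at 120 ppm 10.92, 11.04, 11.12, 11.00 and 11.08. The air and exposed mice did not overlap at 5, 10 and 40 ppm and overlapped at 20 and 120 ppm. It fell by 0.34 ± 0.079 (SE) at 5 ppm and 0.24 ± 0.079 at 120 ppm (limma adjusted p = 0.0003 and 0.00848), and gave -0.14 ± 0.079 at 20 ppm (adjusted p = 0.129). Against the 1 ppm mice in place of air it was not called at 120 ppm (-0.11, adjusted p = 0.194), nor with the array axis at 5 or 120 ppm (adjusted p = 0.716 and 0.735).

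Rpl3l and Rpl39l were dim in every mouse. Rpl3l gave 3.22, 3.25, 3.25, 3.45 and 3.21 log2 in air, 3.64, 3.95, 3.19, 4.01 and 3.38 at 1 ppm and 2.93, 3.21, 2.96, 3.09 and 3.08 at 5 ppm. It gave 2.98, 3.11, 3.14, 3.07 and 3.34 at 10 ppm, 3.42, 3.24, 3.08, 3.25 and 3.29 at 20 ppm, 3.21, 3.55, 3.54, 3.29 and 3.33 at 40 ppm and 3.10, 3.21, 3.78, 3.01 and 3.18 at 120 ppm. Its changes from air ran from -0.22 to 0.36 and none was called, the lowest adjusted p being 0.116 at 5 ppm. Each exposed group overlapped the mice in air, and the highest values were those of 2 mice at 1 ppm, 4.01 and 3.95. The test of any difference among the 7 groups did call it (limma adjusted p = 0.00424). Rpl39l gave 3.64, 3.54, 3.22, 3.32 and 3.18 log2 in air, 3.15, 3.30, 3.73, 3.22 and 3.07 at 1 ppm and 3.45, 3.15, 2.87, 3.26 and 3.46 at 5 ppm. It gave 3.41, 3.09, 3.11, 3.40 and 3.16 at 10 ppm, 3.28, 3.77, 3.35, 3.19 and 3.07 at 20 ppm, 3.20, 3.10, 3.32, 3.26 and 3.68 at 40 ppm and 3.23, 3.22, 3.35, 3.25 and 3.27 at 120 ppm. No comparison called it either, with changes from -0.15 to -0.05. At so low a signal these arrays give little measure of either gene.

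Among the rest, 9 genes were called at no concentration from 5 ppm up. They were Rpl3l and Rpl39l together with Rpl19, Rpl23a, Rpl7a, Rps7, Rps20, Rps21 and Rps28, named because they complete that count. Rpl22, a large subunit protein that the ribosome can do without and that T cell development needs, was called at 10 ppm alone (-0.20 ± 0.0849, SE, limma adjusted p = 0.042) and gave 0.01 ± 0.0849 at 120 ppm. Rpl14 was called at 20 ppm alone, higher by 1.22 ± 0.307 (limma adjusted p = 0.000904), with mice between 6.16 and 7.69 log2 there and between 5.04 and 7.22 in air. Those ranges overlapped, and the call did not hold with the array axis (0.88, adjusted p = 0.181) or the interquartile range (1.29, adjusted p = 0.0741).

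The direction of a gene went with its signal in the mice at 1 ppm. The mean signal of the 1 ppm mice, which enter none of the changes set against it, correlated with the change from air across the 63 bright genes with a Pearson r of -0.76 at 5 and 10 ppm, -0.79 at 20 ppm and -0.78 at 40 and 120 ppm (Spearman rho -0.71 to -0.75). Of the 28 genes under 12 log2 at 1 ppm, 23 rose and 2 fell at 5 ppm and 24 rose and 1 fell at 120 ppm, with a median of 0.61 and 0.62. Of the 35 at 12 log2 or more, 6 rose and 22 fell at 5 ppm and 5 rose and 18 fell at 120 ppm, with a median of -0.24 and -0.16. The brightest part of the set thus held most of its falls and the dimmer part most of its rises. The air signal of a gene lies close to that at 1 ppm and enters its change with a minus sign, and all points share the same arrays, so r is given as a description.

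Other bright genes had a negative relation too. Across the 794 genes outside the set with a mean of at least 10 log2, r was -0.61 at 5 ppm and -0.63 at 120 ppm. That minimum is a mean over all arrays, so a gene under 10 log2 at 1 ppm entered only if it was higher in other groups. The filter thus builds a negative r, and rises under 12 log2, into these 794 genes. How much of either it accounts for was not tested. Of the 93 with a 1 ppm signal of 12 log2 or more, 12.9% rose and 67.7% fell at 5 ppm, and 8.60% rose and 61.3% fell at 120 ppm. The 701 under 12 log2 were divided more evenly than the 28 ribosomal protein genes there, with 43.7% higher and 43.1% lower at 5 ppm and 46.1% and 38.1% at 120 ppm. This difference was not tested. All 794 together were called in 86.0% at 5 ppm and 82.5% at 120 ppm, against 84.1% and 76.2% of the 63, but their changes were larger, with a median size of 0.81 and 0.64 log2 against 0.37 and 0.34. The 63 and the 794 were not matched for signal. Across all 128 bright genes at 12 log2 or more at 1 ppm, the set included, the median size was 0.38 and 0.31 log2. Across the 729 under 12 log2 it was 0.85 and 0.69. The smaller size is thus not particular to the set. At 120 ppm 41.7% of the 794 were higher and 40.8% lower, and of the 63 ribosomal protein genes 46.0% and 30.2%. In all 5 groups 37.5% of the 794 were higher and 35.1% lower, against 41.3% and 25.4% of the 63.

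**Figure D3:**
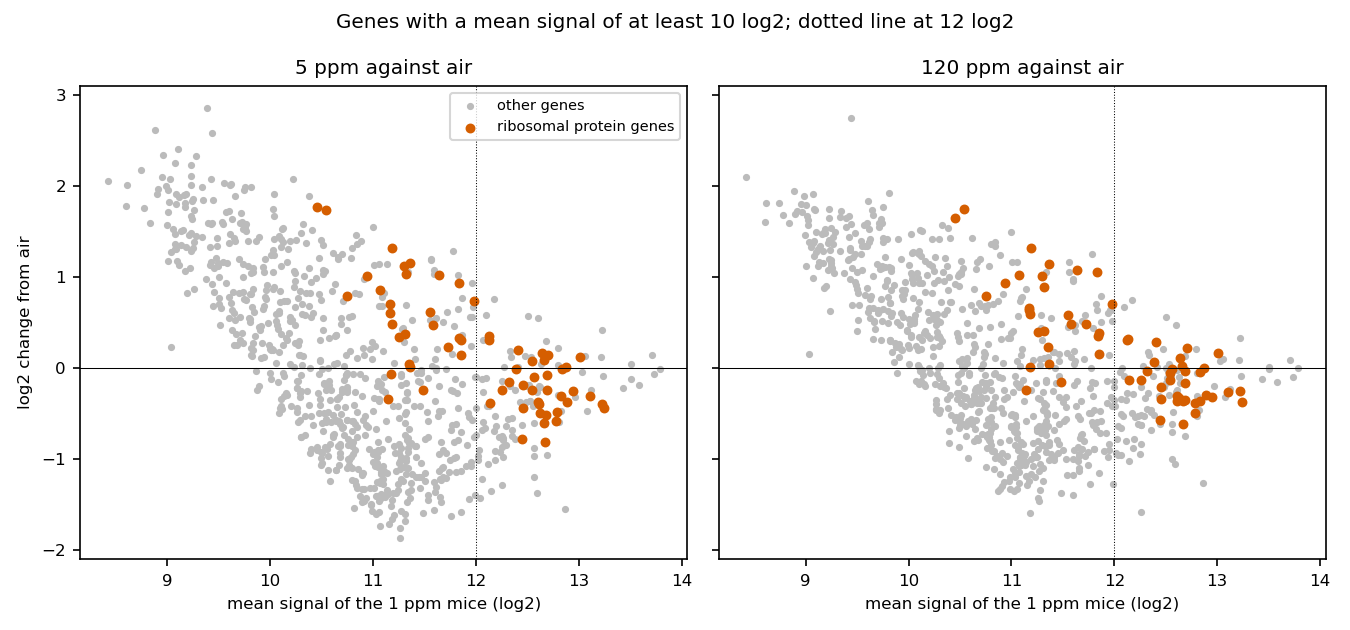
Log2 change from air at 5 ppm (left) and 120 ppm (right) against the mean log2 signal of the 1 ppm mice, for the 63 bright ribosomal protein genes (orange) and the 794 other genes with a mean of at least 10 log2 over all arrays (grey); that minimum empties the lower left corner. Rises in orange lie mostly left of 12 log2 and falls right of it.

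**Figure D4:**
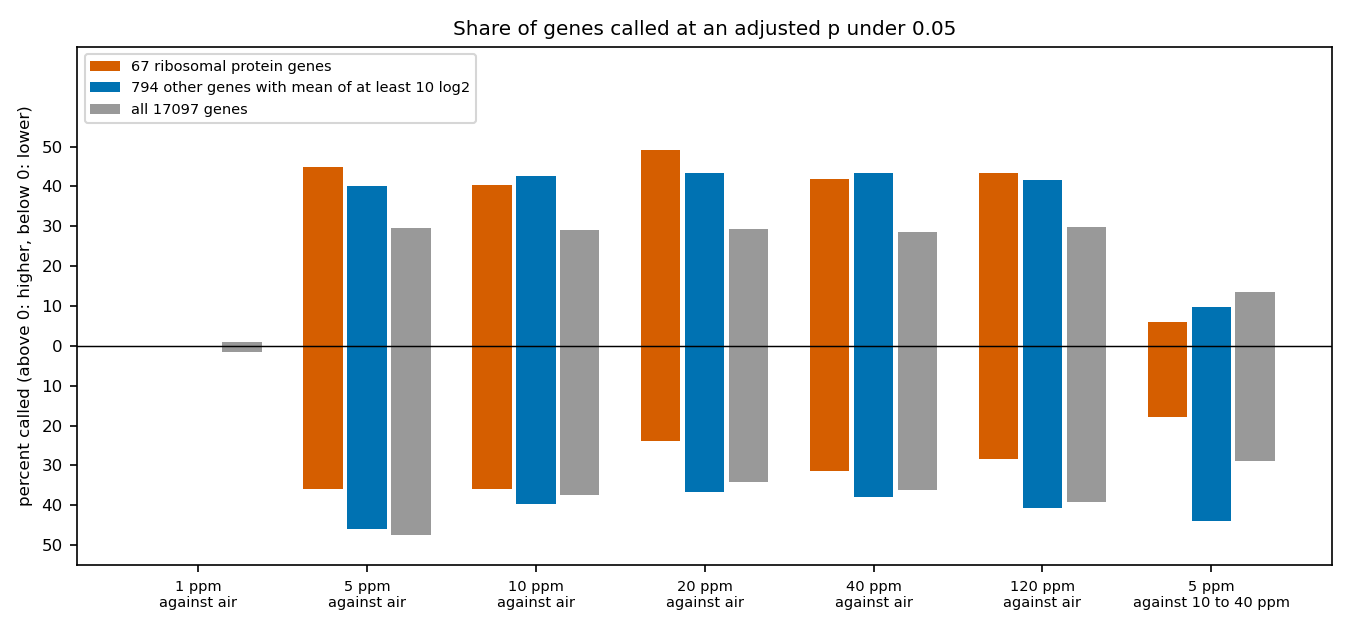
Percent of genes called higher (above 0) and lower (below 0) by limma in each comparison, for the 67 ribosomal protein genes, the 794 other bright genes and all 17097 genes. At 120 ppm against air the bars of higher and lower genes stand at 41.7% and 40.8% for the 794 and at 29.8% and 39.1% for all genes; at 1 ppm neither the ribosomal protein genes nor the other bright genes have a bar, with 0 called.

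The same relation can be read on single arrays, as the spread among the 63 probe sets, which is no separate evidence of it and no measure of abundance. The SD across the 63 bright genes of one array was 0.711 ± 0.0842 log2 (SD, n = 5 arrays; 0.606 to 0.823) in air and 0.738 ± 0.0361 at 1 ppm. It was 0.469 ± 0.0151 at 5 ppm, 0.460 at 10 ppm, 0.440 at 20 ppm, 0.443 at 40 ppm and 0.441 ± 0.0126 (0.425 to 0.455) at 120 ppm. The widest array from 5 ppm up, at 0.484, was narrower than the narrowest in air. Over all probe sets the interquartile range of these same arrays was wider, not narrower, than in air. Across all 857 bright genes the SD fell less, from 1.03 ± 0.0952 in air to 0.871 ± 0.0195 at 120 ppm. In air the 63 genes averaged 12.13 ± 0.0813 log2, with 12.06 at 1 ppm, 12.29 at 5 ppm, 12.27 at 10 ppm, 12.39 at 20 ppm, 12.32 at 40 ppm and 12.34 ± 0.0425 at 120 ppm. On the deposited values, at every concentration from 5 ppm up the lowest array of the group lay above the highest in air, at 12.21. The median of all probe sets on an array was also higher, as a group mean, in each of these groups than in air. The mean of the 63 genes was not centred on that median, so this separation cannot be read as one of the set alone. No test was run on the mean of the 63 genes, which is a score over genes chosen by name.

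**Figure D5:**
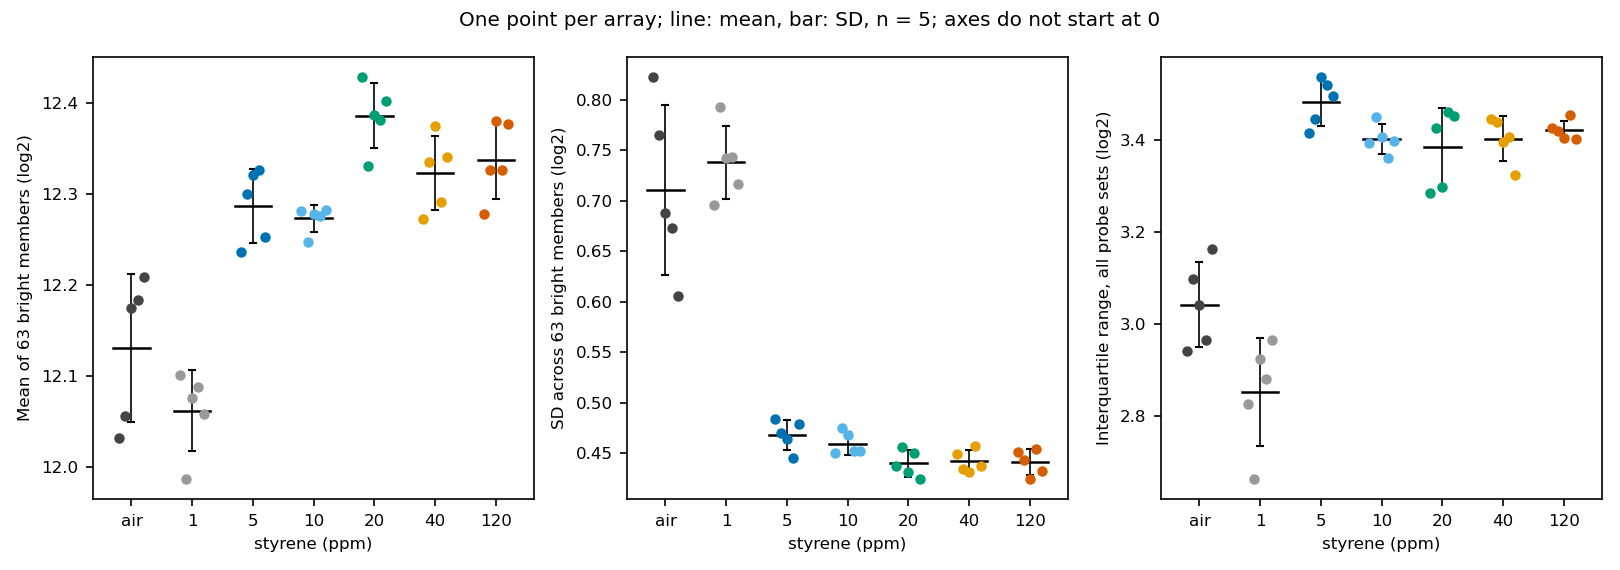
Left, mean log2 signal of the 63 bright ribosomal protein genes on each array; middle, SD across them; right, interquartile range of all probe sets on the same arrays. Points are arrays by styrene concentration, lines are means and bars SDs (n = 5); from 5 ppm up the middle panel lies at 0.425 to 0.484 and in air at 0.606 to 0.823.

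Over all arrays together, mice above their group mean for one gene tended to be so for others that moved the same way. After taking out the group means, pairs of the 63 bright genes had a median r of 0.278 over the 35 arrays, and 80.6% of pairs were positive. Among the 26 rising genes the median was 0.503 and among the 16 falling genes 0.419, whereas a rising gene with a falling one gave -0.01. Pairs of all genes gave 0.00888 and pairs of the 857 bright genes 0.0841. All pairs share the same arrays, and the array axis is drawn from the same residuals, so this is a description of these arrays. The groups did not weigh alike in it: the mean of the 63 genes had an SD of 0.0813 log2 in air and 0.0148 at 10 ppm. In air that mean rose with mouse number, at 12.03, 12.06, 12.18, 12.18 and 12.21 log2 in mice 1 to 5. The values of r thus do not describe each group by itself. The set was also steady within groups, with a median SD of 0.0799 log2 against 0.206 for all genes and 0.145 for the 857 bright ones.

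Fewer genes of the set differed between concentrations, without the mice in air. For 5 ppm against the mean of 10, 20 and 40 ppm, 16 of 67 genes were called, 4 higher and 12 lower, where 42.3% of all genes were called, 13.5% higher and 28.8% lower. The 4 higher were Rpl7 (0.26 ± 0.0803, SE, limma adjusted p = 0.009), Rpl23, which binds MDM2 (0.24 ± 0.0564, adjusted p = 0.000872), Rpl30 (0.16 ± 0.0669, adjusted p = 0.0474) and Rps24 (0.14 ± 0.0583, adjusted p = 0.0448). The calls of Rpl30 and Rps24 were lost with each array centred on its median (0.12 and 0.10, adjusted p = 0.173 and 0.186). Without most single mice one or both were lost, at changes of 0.14 to 0.18 for Rpl30 and 0.13 to 0.15 for Rps24. Over all single mice left out, 11 to 18 genes were called, the lowest without 5 ppm mouse 1. The largest falls were those of Rpl14 (-0.81 ± 0.251), Rplp2 (-0.25 ± 0.0488), Rpl8 (-0.24 ± 0.0595), Rps9 (-0.24 ± 0.0541) and Rpl36 (-0.21 ± 0.0521). The 5 mice at 5 ppm lay above all 15 of the other groups in 1 gene, Rpl23, and below them in 3, Rpl14, Rplp2 and Rps10. Adjusted for the array axis, 0 genes of the set were called here, and 4.97% of all genes.

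At 120 ppm no gene of the set was called against the mean of 10, 20 and 40 ppm. Limma called 0 of 67 genes, with 0.0936% of all genes, and 0 at an unadjusted p under 0.05 (10.7% of all genes). The largest change was 0.14 log2, in Rpl7. A slope over log2 of the concentration from 5 to 120 ppm was called in 0 of 67 genes (0.076% of all genes), with 11 passing an unadjusted p of 0.05 (23.7% of all genes). Its lowest adjusted p was 0.097, in Rps9. Over all 7 groups a difference of any kind was called in 57 of 67 genes, 20 of the small and 37 of the large subunit, and in 82.4% of all genes.

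Genes around the ribosome were counted from lists compiled with earlier results of these data known. Of 17 measured TOP genes outside the ribosome, 12 were higher and 4 lower at both 5 and 120 ppm, with medians of 0.53 and 0.57, where 77.0% and 68.9% of all genes were called. Naca, which shields new peptides at the ribosome, rose by 1.73 ± 0.0819 (SE) at 120 ppm, and Eif3e, a subunit of initiation factor 3, by 1.80 ± 0.104. Of 18 initiation factors 10 were higher and 7 lower at 120 ppm, with Eif3m at 2.09 ± 0.111, and of 13 elongation and release factors 6 were higher and 6 lower. Among 17 genes of the mTORC1 pathway and its TOP regulators 9 were higher and 7 lower at 120 ppm. Deptor, an inhibitor bound to mTORC1, rose by 2.15 ± 0.195, and Ddit4, which damps its activity under stress, fell by 1.5 ± 0.276. Of 12 genes for transcription of ribosomal RNA 4 were higher and 5 lower, and of 45 factors of ribosome assembly 22 and 17, with Utp6 at 2.02 ± 0.136 and Bysl at -1.81 ± 0.173. In the circuit that joins the 5S particle to p53, 4 of 6 measured genes were higher and 2 lower, Mdm2 rising by 2.01 ± 0.119 and Cdkn1a, a p53 target, falling by 1.60 ± 0.309. Among 20 aminoacyl-tRNA synthetases 10 were higher and 9 lower at 120 ppm.

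The mitochondrial ribosome is a separate particle made by other genes. At 120 ppm 31 of its 73 measured protein genes were higher and 34 lower, with a range from -1.66 to 2.25 log2 and a median of -0.22, where 29.8% of all genes were higher and 39.1% lower. At 5 ppm 23 were higher and 41 lower, with a median of -0.53, where 29.6% and 47.4% of all genes were. For 5 ppm against 10 to 40 ppm 1 was higher and 52 lower, with a median of -0.34, beside 4 and 12 of the 67 cytosolic genes with a median of -0.05, and 13.5% and 28.8% of all genes with a median of -0.12. The difference between the 2 lists was not tested.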

How the data were processed

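Lung RNA from 35 mice was hybridised to Affymetrix 3' expression arrays, 1 array per mouse. The log2 values deposited by the authors were used as given. RMA and Partek are named in the submitters' processing notes, and versions are not given in the sources used here. RMA usually forces a common distribution on the arrays to a large extent, so a shift shared by most transcripts can be hidden, and strong signals are compressed. The deposited arrays did not share a common distribution, since their interquartile ranges differed as given above. Which processing step left this difference was not tested. Probe sets were named through the platform annotation, 28898 of 45037 with 1 symbol, and the brightest per gene by its mean over all arrays was kept, giving 17097 genes. R 4.3.3 and limma 3.58.1 fitted a mean for each of the 7 groups, with empirical Bayes variances and two-sided Benjamini-Hochberg adjustment over all genes, after a test on simulated data. Each gene had a single variance shared by all groups. For genes that varied more in air than in the exposed groups, such as Rpl4, Rps6 and Rpl11, the SE does not show the wider spread in air. A gene was called at an adjusted p under 0.05. Changes are relative to the 5 mice in air. The titles call the samples biological replicates.

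Named genes were the 5 called members with the largest change in each direction of each comparison, a fixed list of members, and up to 3 called genes of each other list. The members, lists and tests were chosen with earlier results of these data known. Alternatives were another choice of probe set, normalization, filter on dim genes, samples in the fit, variance prior, threshold, covariates for the array axis and the interquartile range, a replicate block, and each mouse left out. Mouse numbers did not pair the samples. No check of GC content or length was made, since no transcript sequences were used here and promoters were matched for 79.1% of the genes.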

Additional observations from a re-analysis of the deposited data

Results flagged for a closer look

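In 77 groups of 5 arrays the lowest or highest value was set against Dixon's 95% critical value of 0.71 for the gap over the range, and 5 passed it, where chance gives about 1 in 20. Rpsa at 10 ppm had mouse 2 lowest, at 12.07 log2, with the nearest mouse at 12.20. The mean of the 63 bright ribosomal protein genes was lowest in the same mouse, at 12.25 with the nearest at 12.28. Rpl8 at 5 ppm had mouse 4 highest, at 12.17, with the nearest at 11.87, and that mouse still lay below all mice in air. Rpl3l had mouse 4 highest in air, at 3.45 with the nearest at 3.25, and mouse 3 highest at 120 ppm, at 3.78 with the nearest at 3.21. No cause was tested for any of them.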

How the results depend on the processing

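Arrays from 5 ppm up overlapped air neither on the array axis nor in interquartile range, so both covariates extrapolate, and their effect on these counts cannot be told apart from that of exposure. With the array axis 13, 27, 30 and 24 genes were called at 5, 10, 40 and 120 ppm, 0 for 5 ppm against 10 to 40 ppm and 34 for any difference. In the same order, 16.2%, 23.9%, 30.2%, 24.3%, 4.97% and 37.8% of all genes were called. With the interquartile range 32, 33, 32, 29 and 31 were called from 5 to 120 ppm, beside 34.1%, 28.8%, 28.2%, 28.3% and 29.5% of all genes. At 1.5-fold or more 18, 15, 17, 16 and 17 were called, 1 for 5 ppm against 10 to 40 ppm and 24 for any difference, and at an adjusted p under 0.01 there were 10 for 5 ppm against 10 to 40 ppm, both by their stricter threshold. With the mean of probe sets, and with a trended and robust prior, 1 gene was called at 1 ppm, and with only genes of at least 10 log2 kept 1 had a trend. The cause was not tested.

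With single mice left out the calls ranged from 0 to 1 at 1 ppm, 50 to 53 at 5 ppm, 49 to 52 at 10 ppm, 47 to 50 at 20 ppm, 47 to 49 at 40 ppm and 47 to 50 at 120 ppm. They ranged from 11 to 18 for 5 ppm against 10 to 40 ppm, 0 to 0 for 120 ppm against 10 to 40 ppm, 55 to 57 for any difference and 0 to 3 for the trend.

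With the mouse number as a replicate block 53, 51, 49, 49 and 48 genes were called from 5 to 120 ppm, 15 for 5 ppm against 10 to 40 ppm, where Rpl30 was lost (0.16, adjusted p = 0.0567), and 56 for any difference. Same-numbered mice had a median correlation of residuals of 0.0648 over 105 pairs, 46 of them over 0.1, so the numbers were not taken as pairs.

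Rpl15 turned with the mean of its probe sets, to 0.82, 0.52, 0.82, 0.58 and 0.74 from 5 to 120 ppm. The uncalled Rpl39l turned to 0.017 at 5 ppm and 0.016 at 120 ppm after quantile normalization, to 0.61 and 0.44 with the array axis and to 0.24 and 0.21 with the interquartile range. Rpl3l, also uncalled, turned at 120 ppm to 0.10, 0.067 and 0.35 under these settings, to 0.21 at 5 ppm with the interquartile range, and to 0.022, 0.019 and 0.041 at 120 ppm without air mouse 4, 120 ppm mouse 1 and 120 ppm mouse 4, in a range from -0.15 to 0.041 over single mice left out. Against 1 ppm in place of air it was called lower, at -0.58 for 5 ppm and -0.38 for 120 ppm (limma adjusted p = 0.00015 and 0.00938), and at 5 ppm also with median centring (-0.32, adjusted p = 0.0279). For 5 ppm against 10 to 40 ppm the array axis turned Rpl7 to -0.030 and Rps24 to -0.0078.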

Other observations

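Probe sets of the same ribosomal protein gene were seldom called in opposite directions. Of 33 genes with several probe sets, 15, 13, 12, 12 and 11 had all of them called one way at 5, 10, 20, 40 and 120 ppm. In 24 genes with several bright probe sets, 0 had probe sets called in both directions, and among all 33 there were 1 to 3 such genes at each concentration from 5 ppm up. Rpl15 and Rps6 each paired a bright probe set with a dimmer one called the other way at 120 ppm. Which probe set reports the mature transcript was not tested.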
